A study of Vitis vinifera with 26 samples.

Results

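The effect of 1-methylcyclopropene (1-MCP) on grape berries was examined at 7 weeks after anthesis (WAA) in 10 of the 26 RNA-seq libraries of the study. They were chosen by label: 5 libraries came from treated fruit clusters and 5 from control fruit clusters, all sampled at 7 WAA. The plants were 8-year-old field-grown grapevines of the cultivar 'Pinot Noir' (Vitis vinifera). Treated clusters were enclosed in a bag into which 1-MCP was injected at 5 ppm and kept for 24 h, control clusters received a mock treatment that the labels do not describe further, and sampling followed after 24 h. Groups were taken from the source names, since the description label calls every library, controls included, a treated cluster. Each plant carried 1 treated and 1 control cluster, per the series design text, and counts as 1 biological replicate. Values below are given in the order of plants 1, 2, 3, 4 and 12. The same treatment was applied at 6 WAA (3 plants) and 8 WAA (5 plants), and whether plants were shared between weeks is not stated. The tissue is labelled fruit, with no separation of skin, flesh and seed. Of berry genes used as a check, all 9 sugar transporter and vacuolar invertase loci were detected in each of the 10 libraries of 7 WAA. Other berry lists were detected in part: 3 to 5 of 5 expansin, 4 to 7 of 15 thaumatin-like and 5 to 7 of 8 proanthocyanidin loci per library. Of 12 anthocyanin loci, 0 were detected. In these bulk samples fewer cells of a type and less RNA per cell cannot be told apart.

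1-MCP is a gas that binds ethylene receptors and keeps them from responding to ethylene. The grape berry is a non-climacteric fruit whose ripening begins with softening, sugar import, acid loss and, in red cultivars, anthocyanin colour, and abscisic acid is its best-known hormonal trigger, while a small ethylene signal has been described before this transition. Stilbene synthases, which make resveratrol and related phytoalexins, form a large family of near-identical copies in grapevine and are known to respond to stress, to wounding and to ripening.

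The deposited values were summed over the isoforms of each assembled locus and divided by the library's commonest value above 0.5, here called its step. A level is thus given in units. A unit is not a read: between 63.7% and 69.6% of detected loci had exactly 1 unit, and a locus counts as detected at 0.5 units or more. Values of 0 are written as listed at 0, because loci of genes commonly used as qPCR references were also at 0 in some libraries. The step was 1.027 in all 5 treated libraries and 1.0506, 1.027, 1.0364, 1.0548 and 1.027 in the control libraries, so it differs between the groups. Of 33229 loci, 20128 had a value above 0 in at least 1 of the 10 libraries.

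Treated libraries held slightly more units than their control partners. The totals were 22261, 23485, 23116, 22495 and 23356 units in treated libraries, against 21787, 22240, 21368, 22372 and 22803 units in control libraries. The treated library was higher in 5 of 5 plants and the ranges of the groups overlapped. The mean was 22943 ± 539 units in treated and 22114 ± 552 units in control libraries (SD, n = 5 each), a difference of 828.6 ± 655 units or 3.75% of the control mean. The exact two-sided sign-flip test over the 5 plants gave p = 0.062, the smallest value this design allows, and 0.0938 after adjustment over 3 library measures. Without division by the step the difference was 584 ± 872 units and was above 0 in 3 of 5 plants (exact p = 0.25).

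The number of detected loci had no common direction. Treated libraries had 14739, 15152, 15225, 14227 and 15169 detected loci and control libraries had 14774, 14710, 14496, 15261 and 14835. The treated library of plant 4 had the fewest detected loci of the 10 and the control library of the same plant the most. The mean difference was 87 ± 684 loci, above 0 in 3 of 5 plants (exact two-sided sign-flip p = 0.812). Units per detected locus averaged 1.54 ± 0.028 in treated and 1.49 ± 0.031 in control libraries (SD, n = 5 each), higher in 5 of 5 treated libraries than in their partners (exact p = 0.062, adjusted 0.0938).

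**Figure D1:**
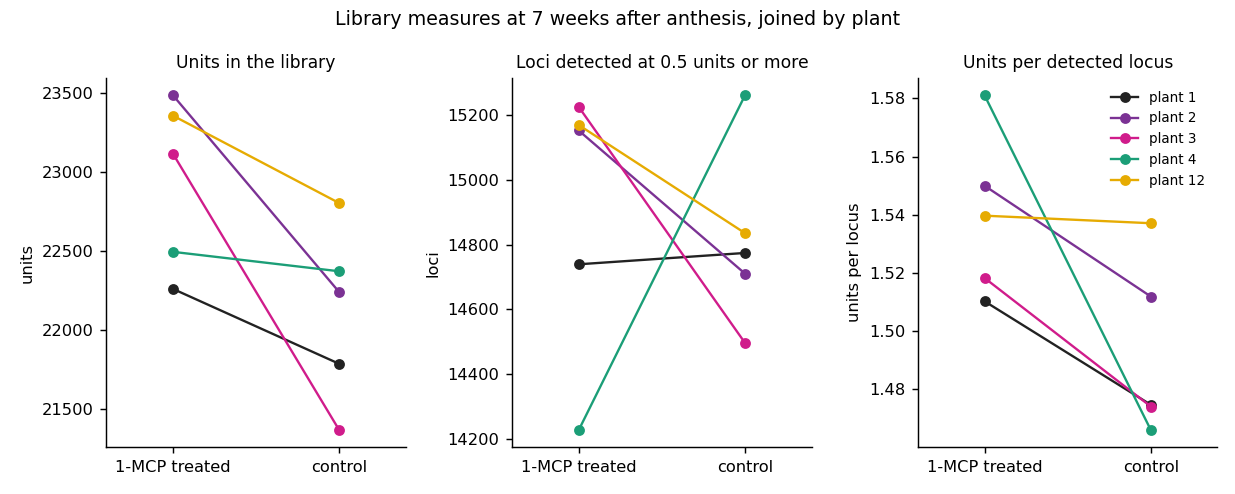
Total units, detected loci and units per detected locus for each treated library and the control library of the same plant at 7 WAA, with lines joining the clusters of 1 plant. Treated totals lie between 22261 and 23485 units and control totals between 21368 and 22803 units, with the treated library higher in each plant, while detected loci run in both directions.

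Totals were also compared by class of locus. Loci with a longest isoform of over 5000 bases differed by 162 ± 164 units between treated and control libraries, 7.27% of the control mean (higher in 4 of 5 plants). Loci with a longest isoform of over 2000 and up to 5000 bases differed by 563 ± 337 units, 4.51% of the control mean (higher in 5 of 5). Loci of over 1000 and up to 2000 bases differed by 159 ± 278 units (higher in 4 of 5), and loci of up to 1000 bases by -55.9 ± 340 units (higher in 3 of 5), a difference that was 92.7 units without plant 4. Loci with exactly 1 reference identifier differed by 780 ± 479 units (5 of 5 plants), and loci with more than 1 identifier by 133 ± 116 units (4 of 5). With libraries scaled to a common total, these differences were 77.5 units for loci of over 5000 bases, 92.7 units for loci of over 2000 and up to 5000 bases, -55.8 units for loci of over 1000 and up to 2000 bases, -114 units for loci of up to 1000 bases, 119 units for loci with 1 identifier and -7.54 units for loci with more than 1. Loci without an identifier held 672, 761, 798, 473 and 856 units in treated libraries, against 703, 685, 778, 1090 and 728 units in control libraries. Plant 4 stood apart in this class, with the lowest treated and the highest control value, and the mean difference of -84.8 units was 48.3 units without it.

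Whether individual loci differed between treated and control clusters was tested with limma on log2(units + 1), fitted on all 26 libraries with a block for each plant. Of 33229 loci, 18588 passed the filter of at least 1 unit in at least 3 libraries, among them 17437 with a reference identifier. The spread behind the p-values was estimated from all 26 libraries, so it includes plants of the other weeks and is not that of this week alone. One locus, 0.00538% of those tested, passed a Benjamini-Hochberg adjusted p of 0.05. At an unadjusted p under 0.05 there were 990 loci, 5.33% of those tested, of which 627 (3.37%) were higher and 363 (1.95%) lower in treated clusters. With libraries scaled to a common total, the higher and lower loci numbered 556 and 465. The median log2 fold change over all tested loci was 0.00.

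The locus that passed was XLOC_011243 on chromosome 16 (13708239 to 13712106, coordinates as deposited, genome build not given in the sources used here), which has no reference identifier. It held 1, 1, 1, 0 and 1 units in treated clusters, against 2, 2, 2, 1 and 2 units in control clusters. Every plant was lower by exactly 1 unit and the groups met at 1 unit. The log2 fold change was -0.67 ± 0.07 (SE; limma adjusted p = 0.0285). It passed in 5 of the 16 other settings tried, with adjusted p between 0.015 and 1. All libraries of 8 WAA listed it at 0, so its small residual spread comes in part from libraries without any signal. At 6 WAA it held 2, 2 and 1 units in treated and 2, 3 and 1 units in control clusters.

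Plants differed in which loci moved. In each plant between 54.0% and 60.4% of tested loci had the same value within 0.5 units in both clusters. The loci higher in the treated cluster numbered 3850, 4169, 4336, 4272 and 3982 in the 5 plants, and the lower ones 3511, 3456, 3190, 4285 and 3632. Across loci, the differences of 1 plant correlated with those of another with coefficients between -0.015 and 0.0573 over 10 pairs of plants, a description across loci, which are not independent. In plant 4 alone lower loci outnumbered higher ones.

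In 5 of 5 plants 48 loci (0.258%) were higher in the treated cluster by at least 0.5 units and 25 loci (0.134%) were lower. The groups did not overlap at 11 loci with higher treated values (0.0592%) and 5 with lower ones (0.0269%). Named below are the 10 in each direction with the smallest unadjusted p among those with a reference identifier. None passed the adjusted threshold (limma adjusted p between 0.252 and 0.728). The files pair no gene name with these identifiers, so no function is given. Some identifiers occur on more than 1 assembled locus, and values are then those of the locus named.

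The lowest p among higher loci belonged to VIT_209s0054g00720 on chromosome 9 (21550139 to 21561817), with 3, 4, 3, 4 and 2 units in treated clusters, against 0, 1, 0, 2 and 0 units in control clusters. The groups met at 2 units, reached by treated plant 12 and control plant 4. Its log2 fold change was 1.53 ± 0.23 (SE; limma adjusted p = 0.252). At 6 WAA it held 3, 3 and 2 units in treated and 3, 1 and 3 units in control clusters, and at 8 WAA 2, 2, 2, 2 and 3 units in treated and 2, 2, 3, 1 and 3 units in control clusters. The values of both groups at 7 WAA overlapped those of the other weeks. The control clusters of plants 1, 3 and 12, at 0, lay below every value of those weeks. The treated clusters of plants 2 and 4, at 4 units, lay above them.

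VIT_214s0066g01630 on chromosome 14 (27976599 to 27989377) had 3, 4, 3, 5 and 3 units in treated clusters and 1, 1, 1, 1 and 2 units in control clusters, without overlap (log2 fold change 1.06 ± 0.24, limma adjusted p = 0.641). VIT_214s0068g01360, also on chromosome 14, had 2.11, 1.55, 1.58, 1.9 and 2 units in treated and 0, 1, 0, 0 and 0 units in control clusters, again without overlap. VIT_204s0008g04470 on chromosome 4 (3843672 to 3850402) had 2, 1, 2, 1 and 2 units in treated clusters and was listed at 0 in all 5 control clusters. Every treated cluster exceeded every control cluster at these 3 loci. VIT_217s0000g03610 had 3, 3, 4, 2 and 2 units in treated and 2, 1, 2, 1 and 1 units in control clusters (log2 fold change 0.66 ± 0.12, limma adjusted p = 0.641), so its groups met at 2 units. VIT_211s0016g03080 had 1.65, 1.65, 1, 1.65 and 1.65 units in treated and 0, 1, 0, 0.18 and 0 units in control clusters, meeting at 1 unit.

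The other higher loci differed by 1 or 2 units per plant. VIT_208s0056g00730 had 3, 2, 2, 2 and 3 units in treated and 2, 1, 1, 1 and 2 units in control clusters. VIT_205s0094g01470 had 4, 3, 2, 3 and 2 units in treated and 2, 2, 1, 1 and 1 units in control clusters. VIT_204s0044g00850 had 2, 3, 3, 4 and 2 units in treated and 1, 1, 1, 2 and 1 units in control clusters. The groups met at 2 units in each of these. VIT_207s0005g06550 had 3 units in every treated cluster and 2, 2, 2, 1 and 2 units in control clusters, without overlap.

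Among lower loci, the assembled locus with VIT_205s0077g02000 and VIT_205s0077g02010 on chromosome 5 (1549461 to 1575021) was listed at 0 in all 5 treated clusters and had 1, 1, 1, 1 and 2 units in control clusters (limma adjusted p = 0.641). The locus with VIT_213s0067g03670, VIT_213s0067g03680 and VIT_213s0067g03720 was likewise listed at 0 in all 5 treated clusters. It had 1, 1, 1, 1 and 2 units in control clusters (limma adjusted p = 0.728). A locus with several identifiers spans neighbouring genes, and its units cannot be assigned to 1 of them. The largest drop in units was at XLOC_003793, the locus with VIT_211s0206g00150, VIT_211s0206g00170 and VIT_211s0206g00180 on chromosome 11 (7476325 to 7554921), with 2, 2, 1, 2 and 2 units in treated and 3, 5, 9, 5 and 5 units in control clusters. Its groups did not overlap (log2 fold change -1.15 ± 0.42, limma adjusted p = 0.728), whereas at 8 WAA they did, with 8, 4, 3, 5 and 4 units in treated and 8, 1, 9, 9 and 2 units in control clusters.

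The remaining lower loci were offset by 1 to 3 units. VIT_216s0039g00700 had 1, 1, 2, 1 and 1 units in treated and 2, 2, 3, 2 and 2 units in control clusters (log2 fold change -0.55 ± 0.11, limma adjusted p = 0.641). VIT_207s0005g02950 had 1, 1, 1, 1 and 2 units in treated and 2, 2, 2, 2 and 3 units in control clusters. VIT_208s0007g05500 had 3, 3, 1, 2 and 2 units in treated and 4, 4, 3, 4 and 3 units in control clusters. Treated and control values shared 1 level in each of these loci. VIT_217s0000g04040 had 0, 2, 1, 1 and 3 units in treated and 2, 3, 2, 4 and 4 units in control clusters. The locus with VIT_218s0001g07860 and VIT_218s0001g07870 had 0, 3, 1, 1 and 0 units in treated and 2, 4, 4, 3 and 2 units in control clusters. Both overlapped between groups, while VIT_212s0028g03750 and the locus with VIT_202s0012g01920 and VIT_202s0012g01930 shared 1 level.

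Few of the 18588 tested loci were detected in every library of 1 group and in no library of the other. Detection in all 5 treated and no control library occurred at 2 loci, VIT_204s0008g04470 and VIT_202s0012g00840, the second with 1 unit in every treated cluster. Detection in all 5 control and no treated library occurred at 3 loci, which were both multi-identifier loci at 0 named above and XLOC_000747 on chromosome 1 (20484514 to 20486394), which has no identifier and had 2, 2, 1, 1 and 1 units in control clusters (limma adjusted p = 0.252). Of the 18588 tested loci, 54 were detected in at least 4 more treated than control libraries and 35 the reverse. The same number of libraries of both groups detected 11789 loci. VIT_201s0010g02890 and VIT_212s0057g00230 (XLOC_005265) had 2 units in every treated and 1 unit in every control cluster, and VIT_214s0108g00840 had 1 unit in every treated and 2 units in every control cluster. VIT_202s0012g00840, XLOC_000747 and these 3 were picked after their values were seen.

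**Figure D2:**
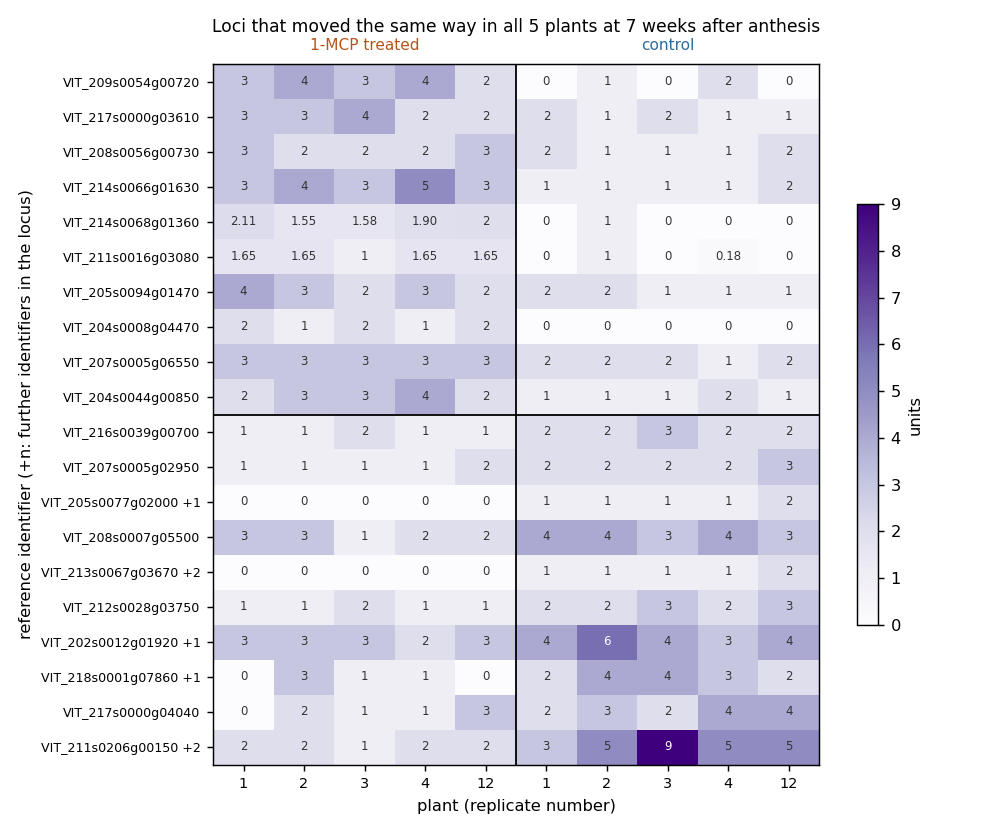
Units of the named loci in each treated and control library at 7 WAA, for the 10 higher and 10 lower loci that moved by at least 0.5 units in the same direction in 5 of 5 plants. Most differences are of 1 or 2 units, and the drop of the chromosome 11 locus, with 1 to 2 treated units against 3 to 9 control units, is the largest shown.

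The gene lists described next hold identifiers recalled from the grapevine literature. A list takes in every locus with an identifier inside its recalled ranges, so loci of other genes can be among its members. The files could not be used to check their membership, and they were chosen with earlier results of these data known. Lists are described by counts, beside the shares over all tested loci: 37% of tested loci had a log2 fold change above 0.05 and 31.6% one below -0.05.

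Stilbene synthase loci of chromosome 16 were higher in treated clusters in every plant. The 42 loci of this tandem array (16238949 to 16711905) summed to 39, 41, 2, 36 and 32 units in treated clusters, against 1, 31, 0, 7 and 16 units in control clusters. The groups overlapped only through treated plant 3, and the lowest other treated total, 32 units, was close to the highest control total, 31 units. Both clusters of plant 3 and the control cluster of plant 1 were almost without signal. The differences within plants were 38, 10, 2, 29 and 16 units, with a mean of 19 ± 14.5 units (SD, n = 5 plants). Without each plant in turn the mean difference was between 14.25 and 23.25 units. An excess in treated clusters at this week was already known for a broader list of stilbene synthase identifiers when this list was chosen, so it is no independent evidence.

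The excess was spread over many members. Of the 42 loci, 28, 29, 2, 27 and 25 were detected in treated clusters and 1, 24, 0, 6 and 14 in control clusters. No member exceeded 4 units in any of the 10 libraries, the list made up 2.29% of the difference in total units, and its total follows how many copies were detected. Of 33 members that passed the filter, 30 (90.9%) had a log2 fold change above 0.05 and 2 one below -0.05, with a median of 0.52. At an unadjusted limma p under 0.05 there were 10 members higher and none lower, where 3.37% of all tested loci were higher and 1.95% lower, and none passed the adjusted threshold. The members were largely detected together in the same clusters, so they are not replicates. These counts largely repeat 1 pattern over 5 plants. No single member was higher in 5 of 5 plants. The 9 members that did not pass the filter were shorter, with a median longest isoform of 560 bases, against 1555 bases for those that passed.

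The member with the smallest p was VIT_216s0100g01150 (16643898 to 16645890), with 2, 2, 0, 1 and 2 units in treated clusters and listed at 0 in all 5 control clusters (limma adjusted p = 0.641). VIT_216s0100g01170 (16682383 to 16711905) was split over 2 assembled loci. XLOC_011958 had 3, 3, 0, 3 and 4 units in treated and 1, 2, 0, 0 and 1 units in control clusters (log2 fold change 0.95 ± 0.28, limma adjusted p = 0.728), and XLOC_011959 had 2, 2, 0, 1 and 1 units in treated and 0, 1, 0, 0 and 1 units in control clusters (limma adjusted p = 0.825). VIT_216s0100g01110 had 1, 2, 0, 1 and 2 units in treated clusters and was listed at 0 in all 5 control clusters. The loci of VIT_216s0100g01170 and VIT_216s0100g01110 were picked after their values were seen. Among treated clusters, only plant 3 was at 0 for these loci. Because the copies are near-identical, the division of units among them depends on how the authors assigned reads and is uncertain.

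At the other weeks plants differed in both directions. At 6 WAA it summed to 19, 9 and 24 units in treated and 2, 12 and 16 units in control clusters, a difference of 7.33 ± 10.02 units. At 8 WAA it summed to 38, 36, 18, 28 and 25 units in treated and 21, 29, 23, 24 and 38 units in control clusters, a difference of 2 ± 11.5 units. The difference between weeks was not tested on the totals. Among single members none passed the adjusted threshold for a difference of the 1-MCP effect between 7 WAA and either other week.

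**Figure D3:**
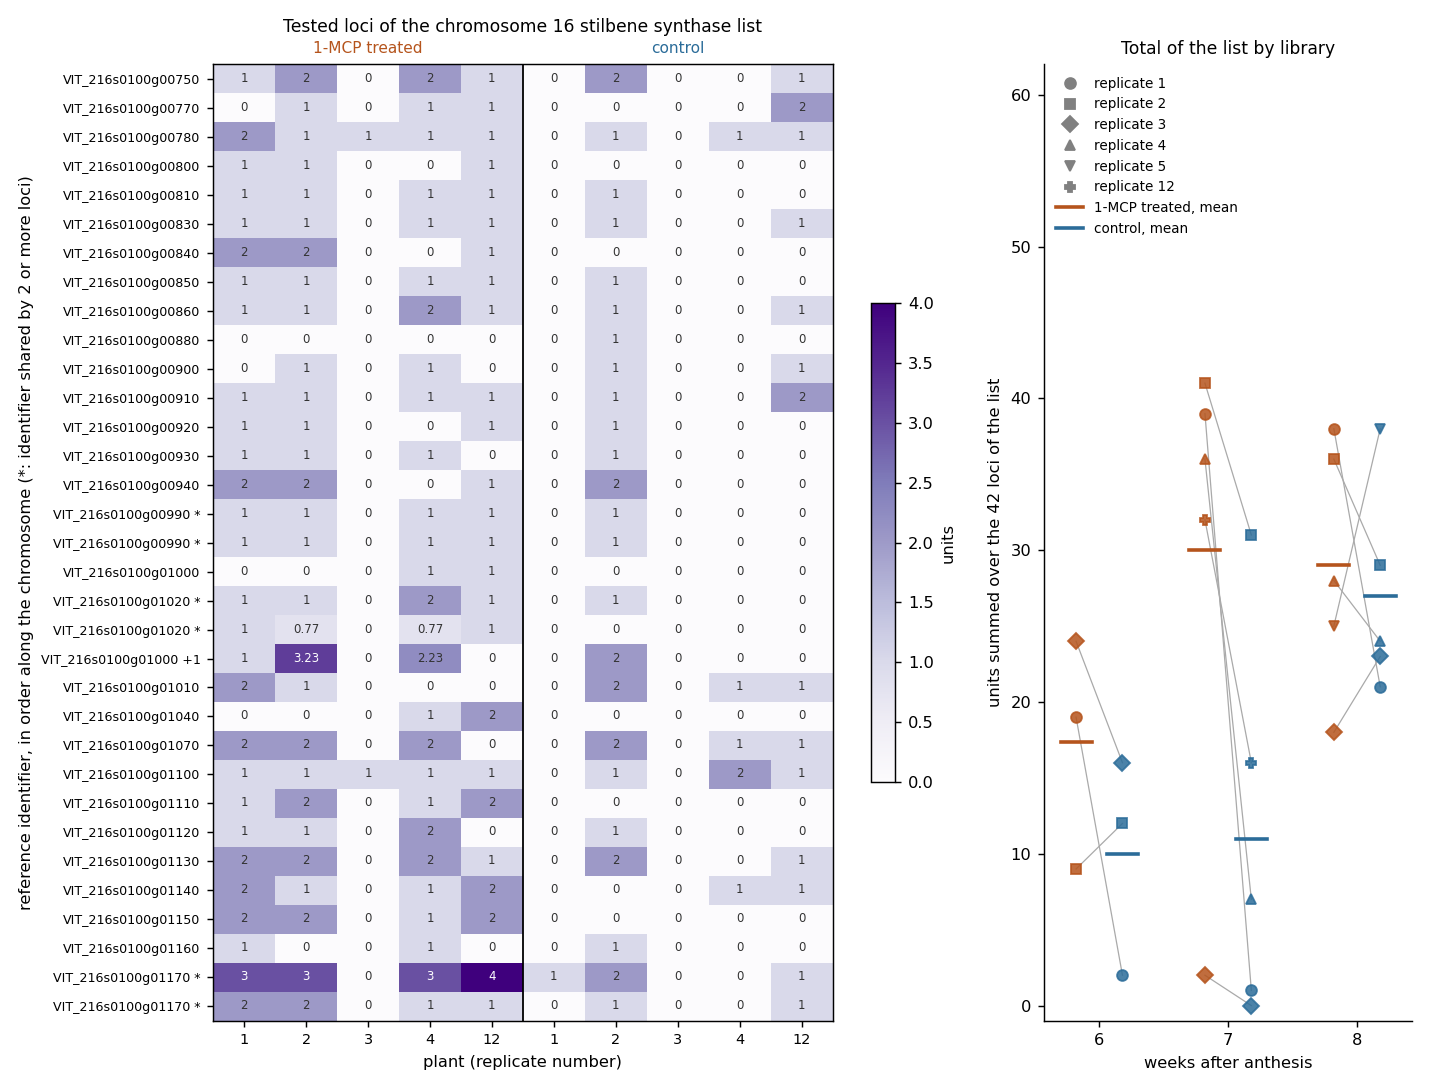
Left, units of the 33 tested stilbene synthase loci of chromosome 16, in order along the chromosome, in each treated and control library at 7 WAA; right, total units of the 42 loci by library at 6, 7 and 8 WAA. At 7 WAA, 4 of 5 treated libraries sum to 32 to 41 units while control libraries run between 0 and 31 units, and both clusters of plant 3 are nearly empty.

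The other loci of stilbene formation held few units. Stilbene synthase loci of chromosome 10 (12 loci, 4 tested) summed to 3, 3, 0, 3 and 5 units in treated and 0, 3, 0, 0 and 0 units in control clusters. Treated plant 3 and the controls of plants 1, 3, 4 and 12 were at 0. MYB and WRKY regulators known to activate stilbene synthases in grapevine were listed with 4 loci. These summed to 7, 7, 7, 5 and 8 units in treated and 5, 9, 4, 7 and 7 units in control clusters. The treated sum was higher in 3 of 5 plants. Of these loci, XLOC_022285 carries 2 and XLOC_024815 carries 3 identifiers, so their units cannot be assigned to 1 gene. Phenylalanine ammonia-lyases and the next enzymes, which supply the precursors (30 loci, 14 tested), summed to 17, 19, 15, 18 and 23 units in treated and 13, 17, 16.7, 16 and 17 units in control clusters. The treated cluster was higher in 4 of 5 plants, plant 3 being the exception, by 2.46 ± 2.86 units on average. Its member VIT_211s0065g00350 had 1 unit in every treated cluster and 0, 0, 0.71, 0 and 1 units in control clusters (limma adjusted p = 0.728).

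Flavonoid genes, which draw on the same precursors, overlapped between the groups. The backbone enzymes (11 loci, 10 tested) summed to 12, 10, 10, 10 and 11 units in treated and 9, 11, 9, 10 and 12 units in control clusters, a difference of 0.40 ± 1.67 units. Proanthocyanidin enzymes and MYB regulators, which make the tannins of young berries (8 loci, 6 tested), had 6 to 7 units in every library of both groups. Flavonoid B-ring hydroxylases (36 loci, 6 tested) had 4 to 7 units in treated and 2 to 6 units in control clusters. The 12 anthocyanin loci, enzymes and MYBA regulators that are switched on at the colour change, were listed at 0 in all 10 libraries. No member of the 3 lists with tested loci had an unadjusted p under 0.05.

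PR10 proteins of chromosome 5, small intracellular pathogenesis-related proteins (18 loci, 9 tested), summed to 16, 16, 11, 16 and 17 units in treated and 10, 13, 12, 12 and 13 units in control clusters. Treated clusters were higher in 4 of 5 plants, again with plant 3 as the exception, by 3.20 ± 2.59 units on average, and the groups overlapped only through treated plant 3. The member with the smallest p was XLOC_022814, a locus that carries VIT_205s0077g01530 to VIT_205s0077g01560 (1231860 to 1247868), with 6, 6, 2, 6 and 7 units in treated and 1, 6, 1, 3 and 4 units in control clusters (log2 fold change 0.78 ± 0.25, limma adjusted p = 0.728). Its mean difference of 2.40 units makes up most of that of the list. At 8 WAA the PR10 difference was 1.00 ± 4.85 units and at 6 WAA 1.33 ± 2.52 units.

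Class IV chitinases, which act on fungal cell walls (16 loci, 7 tested), summed to 8, 8, 8, 10 and 8 units in treated and 8, 9, 6, 6 and 9 units in control clusters. Beta-1,3-glucanases had 3 to 4 units in treated and 2 to 3 units in control clusters. Thaumatin-like proteins of chromosome 2, abundant in ripe berries (15 loci, 9 tested), had 6 to 9 units in treated and 5 to 9.89 units in control clusters. All 3 lists overlapped between groups and had no member with an unadjusted p under 0.05.

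Sesquiterpene synthases of chromosome 18 are a tandem family that makes volatile terpenes. Their list takes in loci from VIT_218s0001g04120 to VIT_218s0001g05500 (113 loci, 61 tested). Its values are those of this identifier range, since its loci were not checked to be such synthases. The list summed to 89, 88, 86, 78 and 88 units in treated and 80, 91, 70, 73 and 85 units in control clusters. The treated cluster was higher in 4 of 5 plants by 6.00 ± 7.07 units on average, with the largest offset, 16 units, in plant 3. Above 0.05 on the log2 scale were 25 members (41.0%) and below -0.05 were 14 (23.0%). VIT_218s0001g05380 had 3, 1, 1, 3 and 1 units in treated and 0, 1, 0, 0 and 0 units in control clusters (log2 fold change 1.20 ± 0.34, limma adjusted p = 0.728). The offset was 9 ± 6.08 units at 6 WAA and 3 ± 8.37 units at 8 WAA.

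Small heat shock proteins of chromosomes 13 and 4, chaperones that hold unfolded proteins (45 loci, 20 tested), had no common direction over plants. They summed to 19, 20, 14, 20 and 12 units in treated and 23, 15, 21, 19 and 15 units in control clusters, lower in treated clusters of 3 of 5 plants (mean difference -1.60 ± 4.67 units). Members below -0.05 numbered 13 (65.0%) and those above 0.05 numbered 5, with a median of -0.20. Over the 45 loci, plants 2 and 4 each had 7 members higher and 5 lower in the treated cluster. In the other plants lower members outnumbered higher ones. Members of a list are not replicates. The member with the smallest p, VIT_204s0008g01490, went against the median of the list. It had 1, 1, 1, 1 and 0 units in treated clusters and was listed at 0 in all 5 control clusters (limma adjusted p = 0.641).

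**Figure D4:**
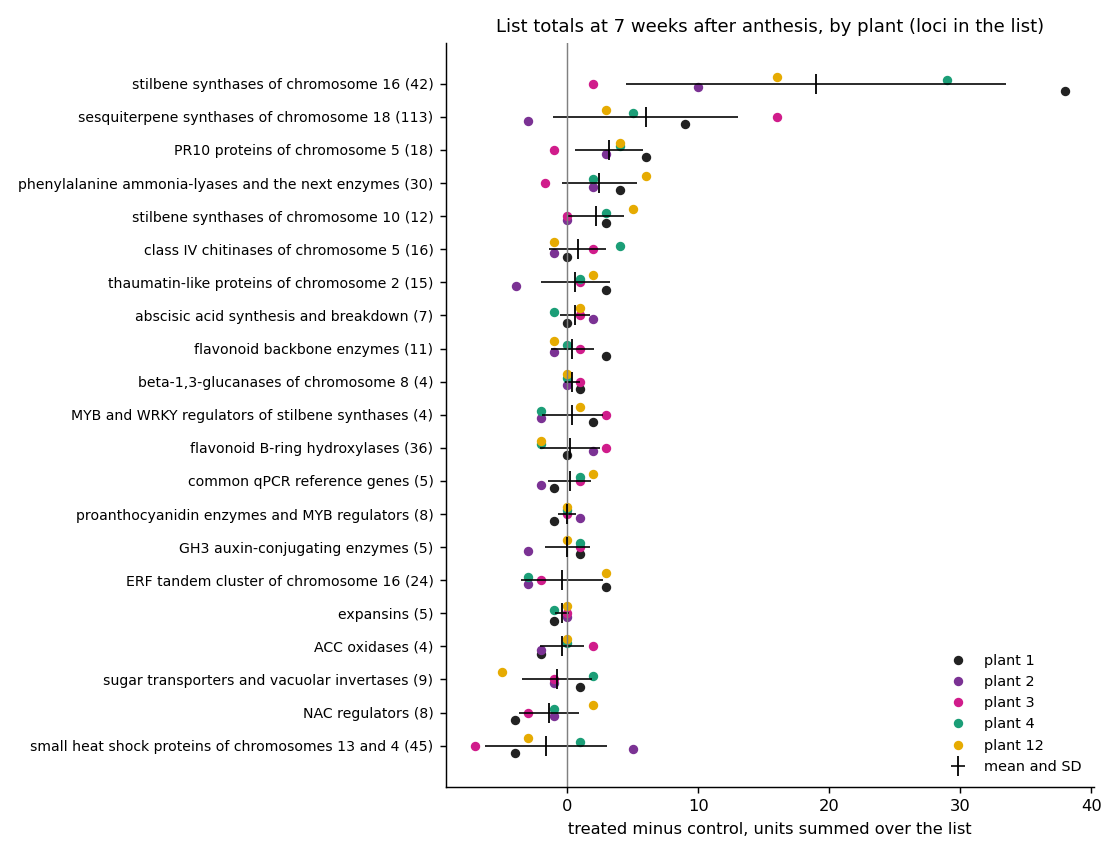
Treated minus control difference in total units of each gene list at 7 WAA, with 1 point per plant and the mean. The stilbene synthases of chromosome 16 spread furthest, between 2 and 38 units and above 0 in 5 of 5 plants, while most other lists lie on both sides of 0.

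Genes of ethylene and ripening showed differences within the spread between plants. The 4 ACC oxidases, which catalyse the last step of ethylene synthesis, summed to 5, 3, 6, 5 and 6 units in treated and 7, 5, 4, 5 and 6 units in control clusters, a difference of -0.40 ± 1.67 units. The ERF genes of chromosome 16, ethylene-responsive transcription factors in tandem (24 loci, 14 tested), summed to 13, 12, 10, 16 and 12 units in treated and 10, 15, 12, 19 and 9 units in control clusters. Neither list had a member with an unadjusted p under 0.05. Ethylene receptors were not among the lists.

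NAC transcription factors (8 loci, 6 tested), described in grapevine as regulators of the ripening transition, summed to 6, 7, 7, 7 and 11 units in treated and 10, 8, 10, 8 and 9 units in control clusters. Treated clusters were lower in 4 of 5 plants by 1 to 4 units and higher in plant 12 by 2 units (mean -1.40 ± 2.30 units). VIT_200s0375g00040 had 1, 1, 2, 1 and 2 units in treated and 2, 1, 2, 2 and 2 units in control clusters (limma adjusted p = 0.825). At 6 and 8 WAA the mean differences of this list were 0.33 ± 2.52 and 0.60 ± 2.07 units.

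Abscisic acid synthesis and breakdown genes (7 loci, 6 tested) summed to 4 to 8 units in treated and 4 to 7 units in control clusters. GH3 enzymes, which conjugate auxin and so lower its free level, summed to 5, 3, 5, 4 and 4 units in treated and 4, 6, 4, 3 and 4 units in control clusters. Sugar transporters and vacuolar invertases, which load and split sugar in the berry, were detected at all 9 loci in the 10 libraries and summed to 9 to 12 units in treated and 10 to 14 units in control clusters. Expansins, which loosen cell walls during softening, summed to 4, 4, 4, 5 and 5 units in treated and 5, 4, 4, 6 and 5 units in control clusters. Of the expansins, VIT_208s0007g00440 had 1, 1, 0, 1 and 1 units in treated and 1, 1, 1, 1 and 2 units in control clusters (log2 fold change -0.32 ± 0.13, limma adjusted p = 0.80), the only member of these 4 lists with an unadjusted p under 0.05. Genes often used as qPCR references (5 loci) summed to 4, 4, 5, 5 and 6 units in treated and 5, 6, 4, 4 and 4 units in control clusters.

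Where along the chromosomes the differences lay was described with windows of 20 neighbouring tested loci, a view chosen after the data were seen. The window with the largest excess in treated clusters lay on chromosome 16 (16408317 to 16711905), and all 20 of its loci were stilbene synthase members. It held 27, 27, 1, 25 and 21 units in treated and 1, 20, 0, 5 and 7 units in control clusters. The next separate region was on chromosome 14 (27959010 to 28157892), with 32, 33, 35, 33 and 28 units in treated and 23, 21, 22, 22 and 22 units in control clusters. Its groups did not overlap, but the region was picked for its excess in these same libraries, so this is no independent evidence. How many windows had groups without overlap was not counted. Plant 3, nearly without stilbene synthase units, showed the largest excess in this region.

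Within the chromosome 14 window 12 loci were higher and 5 lower in treated clusters. It holds VIT_214s0066g01630, named above, and XLOC_008376, a locus with VIT_214s0066g01810 to VIT_214s0066g01840 (28111835 to 28157892), which had 5, 7, 4, 6 and 5 units in treated and 2, 0, 1, 1 and 3 units in control clusters (log2 fold change 1.54 ± 0.52, limma adjusted p = 0.728). The window summed to 23, 23 and 27 units in treated and 27, 28 and 25 units in control clusters at 6 WAA. At 8 WAA it summed to 23, 22, 24, 22 and 25 units in treated and 17, 28, 25, 20 and 23 units in control clusters. Treated totals at 7 WAA were at or above the highest total of the other weeks, and control totals lay within their range.

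A region of chromosome 19 (7709263 to 8147004) held 37, 39, 43, 30 and 36 units in treated and 22.5, 31, 30, 22 and 33 units in control clusters. It includes the locus with the largest mean difference of all, XLOC_017131 with 6 reference identifiers (7910754 to 8034820), which had 12, 15, 18, 4 and 10 units in treated and 4, 5, 6, 3 and 8 units in control clusters (log2 fold change 0.97 ± 0.26, limma adjusted p = 0.728), and was picked after its values were seen. The lowest window, on chromosome 11 (7108416 to 7648433), held 27, 36, 29, 25 and 39 units in treated and 33, 34, 40, 46 and 41 units in control clusters, and includes the chromosome 11 locus named above. Of 18059 overlapping windows, 912 (5.05%) were higher in 5 of 5 plants and 87 (0.482%) lower, against a median window difference of 0.80 units.

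**Figure D5:**
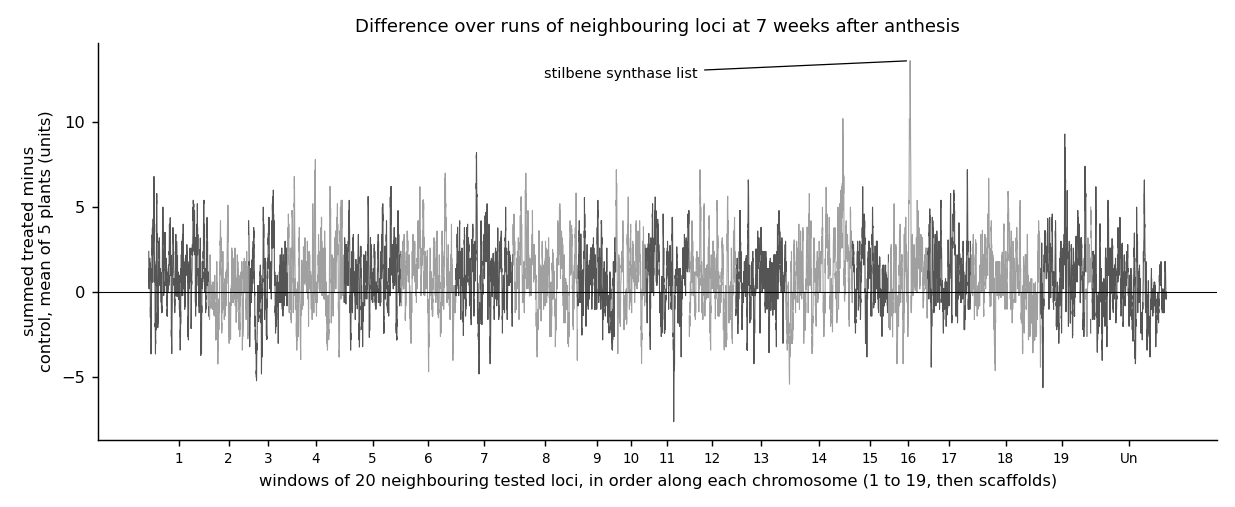
Mean treated minus control difference in units over windows of 20 neighbouring tested loci, ordered along each chromosome, at 7 WAA. The peak of 13.6 units on chromosome 16 is the stilbene synthase array, followed by the region of chromosome 14, and the lowest window, at -7.60 units, lies on chromosome 11.

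Whether the 1-MCP effect at 7 WAA differed from that at 6 WAA was tested as a contrast of treatment coefficients in the same limma fit. Of 18588 loci, 7 (0.0377%) passed the adjusted threshold. At an unadjusted p under 0.05 there were 902 of the 18588 loci, fewer than the 990 (5.33%) for the effect at 7 WAA. The 902 loci taken alone are no evidence of a difference. The number expected by chance is not known, since loci with 1 value in all libraries cannot pass. At 6 of these 7 loci all 10 libraries of 7 WAA had the same value, so the difference lay in the 6 WAA clusters. None of the 7 passed when loci with 1 value in all libraries were left out of the fit or with a filter at 2 units, and the smallest p-values below belong to loci with almost no residual spread. VIT_214s0030g00575 had 1 unit in every library at 7 WAA, and at 6 WAA 1 unit in every treated and 2 units in every control cluster. The difference between weeks was 0.58 on the log2 scale (limma adjusted p = 4.61e-09). VIT_205s0020g03770 was listed at 0 in all 10 libraries at 7 WAA and had 1, 1 and 2 units in control clusters of 6 WAA only (1.20, limma adjusted p = 0.00181).

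The exception was VIT_204s0023g02590, whose effect at 7 WAA was lower by 1.74 on the log2 scale than at 6 WAA (limma adjusted p = 0.011). It had 1 unit in every treated cluster and 2, 1, 2, 2 and 1 units in control clusters at 7 WAA. At 6 WAA it had 2, 2 and 1 units in treated clusters and was listed at 0 in the control clusters. The 1-MCP difference thus had opposite directions in these weeks, and at 8 WAA it was again lower, with 0, 1, 0, 0 and 0 units in treated and 1, 2, 1, 1 and 1 units in control clusters. VIT_209s0002g05320 (-1, limma adjusted p = 2.43e-11), VIT_206s0061g01370 (-0.72, limma adjusted p = 0.00734) and 2 loci without an identifier made up the rest. Between 7 and 8 WAA no locus (0%) differed at the adjusted threshold in limma, and the smallest adjusted p was 0.344. At an unadjusted p under 0.05 there were 851 of the 18588 loci, a number that taken alone is again no evidence of a difference. Both contrasts share the libraries of 7 WAA and are not independent of each other.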

How the data were processed

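Berry RNA was sequenced by Illumina technology, per the labels' protocols. For each library the authors deposited a signal per assembled isoform (90542 isoforms), and a further deposited table holds each isoform's locus, identifier in the reference, position and length. The submitters' processing notes name Bowtie2 2.2.3. No source used here gives the quantification program, the annotation or the genome build. The deposited signal is neither a read count nor FPKM. In each library most of its values fell on multiples of 1 step, and between 97.7% and 98.4% of locus sums at 7 WAA were within 0.01 of a whole multiple. The variance of a locus was 0.37 to 0.43 times its mean within groups, so no count test was run and the number of reads behind a value is unknown. Detection at 7 WAA depended on length, at 4.80% of values where the longest isoform had up to 500 bases and 75.9% where it had over 2000 and up to 5000 bases.

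Isoform values were summed per locus and divided by the step. Loci with at least 1 unit in at least 3 libraries were tested with limma 3.58.1 in R 4.3.3 on log2(units + 1), where a fold change understates that of low loci. The fit used 26 libraries, 13 plant blocks and 1 treatment coefficient per week, without trend or robust options, with Benjamini-Hochberg adjustment over all tested loci and a threshold of 0.05. Same-numbered treated and control libraries of 7 WAA deviated from their group means with correlations of -0.089 to 0.0644, so the pairing rests on the series design text. Library measures were compared with an exact two-sided sign-flip test over 5 plants. Tables were handled in Python 3.11.15 with pandas 2.3.3 and numpy 2.4.6, and the fit was tested on simulated data.

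The members, lists and rules were chosen with earlier results of these data known. Named loci are those past the threshold, the 10 per direction with an identifier and the smallest p among loci that moved by at least 0.5 units the same way in 5 of 5 plants, and the member with the smallest p of each list with at least 5 tested members. Of 31919 reference identifiers 0 matched the RefSeq gene table at hand, so no gene names or sequences are given. Alternatives covered the block, the libraries fitted, pseudocount, filter, scale, flat loci and each plant left out, with detection in place of level, and the same-way counts under other scales and without each plant, added after seeing the data.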

Additional observations from a re-analysis of the deposited data

Results flagged for a closer look

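In groups of 5 libraries, 43 single values stood apart from the other 4 by Dixon's criterion. Chance gives this in about 1 in 20 groups. How many groups were looked at is not given here, so the 43 cannot be compared with that rate. On a scale of whole units any lone library that differs from 4 equal ones meets the criterion. Plant 3 stood low in its treated cluster for the stilbene synthases of chromosome 16 (2 units), the PR10 proteins (11 units) and their locus VIT_205s0077g01530 to VIT_205s0077g01560 (2 units). Control plant 1 stood low for phenylalanine ammonia-lyases and the next enzymes (13 units), and control plant 2 high for the stilbene synthases of chromosome 10 (3 units). Control plant 4 stood high for loci without an identifier (1090 units), for loci of up to 1000 bases (1958 units), for isoforms with no reference (1159 units) and for isoforms of other overlap (450 units).

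Among the other list totals, treated plant 4 stood high for class IV chitinases (10 units) and low for the sesquiterpene synthases (78 units), and treated plant 12 stood high for the NAC regulators (11 units). Control plant 12 stood high for sugar transporters and invertases (14 units). The beta-1,3-glucanases had 4 units in treated plant 1 and 2 units in control plant 3, and the proanthocyanidin list had 6 units in treated plant 1 and in control plant 2.

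Among loci higher in treated clusters, single values stood apart in control plant 12 of VIT_214s0066g01630 (2 units), control plant 2 of VIT_214s0068g01360 (1 unit), control plant 4 of VIT_207s0005g06550 (1 unit) and control plant 4 of VIT_204s0044g00850 (2 units). VIT_211s0016g03080 had 1 unit in treated plant 3 and in control plant 2. Treated plant 12 was at 0 for VIT_204s0008g01490, and control plant 2 had 1 unit of VIT_218s0001g05380 and of VIT_202s0025g04320 (XLOC_018357).

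Among loci lower in treated clusters, plant 4 stood low in both groups at XLOC_011243 (0 units treated, 1 unit control). Plant 3 stood high in both at VIT_216s0039g00700 (2 units treated, 3 units control), and so did plant 12 at VIT_207s0005g02950 (2 units treated, 3 units control). Control plant 12 had 2 units at the loci with VIT_205s0077g02000 and with VIT_213s0067g03670. Treated plant 3 had 2 units at VIT_212s0028g03750 and 1 unit at the chromosome 11 locus with VIT_211s0206g00150, and treated plant 4 had 2 units at the locus with VIT_202s0012g01920. Of list members, control plant 2 had 1 unit of VIT_200s0375g00040, VIT_203s0091g00310 had 2 units in treated plant 1 and 0 in control plant 4, and control plant 3 had 2 units of VIT_203s0038g03940. VIT_208s0007g00440 had 0 units in treated plant 3 and 2 in control plant 12.

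The 1-MCP effect differed between 7 and 6 WAA at 7 loci by the limma contrast. On the log2 scale the 7 WAA effect minus the 6 WAA effect was 1.20 at VIT_205s0020g03770, 1 at XLOC_023041 and 0.58 at VIT_214s0030g00575. It was -1.74 at VIT_204s0023g02590, -1 at XLOC_005612, -1 at VIT_209s0002g05320 and -0.72 at VIT_206s0061g01370.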

How the results depend on the processing

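At 7 WAA 1 locus passed the adjusted threshold. The count was 4 with only the libraries of 7 WAA, none of them the same locus, and 0 with a pseudocount of 0.1 or 0.5, with a filter at 2 units, with flat loci left out and with detection in place of level. Without each plant in turn it was 0 to 2. Without the replicate block it was again 1, but at another locus. XLOC_011243 passed in 5 of 16 other settings. The 7 loci that differed between 7 and 6 WAA became 11 with only those weeks, 0 with the filter at 2 units and 0 with flat loci left out, 8 without the replicate block, and 8 to 22 with 1 plant left out. Between 7 and 8 WAA leaving out 1 plant gave 0 to 3 loci. With no pairing by plant, the difference in total units of 828.6 had exact permutation p = 0.0476 and that of 0.0472 units per detected locus p = 0.0397. Without 1 plant these differences were 599 to 1005 units and 0.0302 to 0.0583. The difference in detected loci ranged from -73.5 to 367 and turned negative without plant 2 (-1.75) and without plant 3 (-73.5). Counts of loci that moved the same way in every plant, 48 higher and 25 lower, were 124 to 161 and 61 to 89 over 4 plants, since fewer plants had to match. The limits of these data are their coarse scale, where most detected loci stand at 1 unit, the weak detection of short loci, an unknown read depth, a step that differs between groups, list membership that the files could not check, and 5 plants.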
